A study of Mus musculus with 137 samples.

Results

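The 9 genes Nos2, Gch1, Slc7a2, Slc7a1, Ass1, Asl, Arg1, Arg2 and Odc1 carry out or feed arginine and nitric oxide metabolism in macrophages. They were chosen by name from 34573 gene symbols, all 9 were found, and all 9 passed the filter on low counts in each of 3 mouse cohorts. Macrophages were grown from bone marrow of mice aged 7 weeks for 7 days with 20 ng/ml M-CSF. They were then left untreated (0 h) or given 100 ng/ml LPS with 100 ng/ml IFN-gamma for 6 h or 24 h. In cohorts KO1 and KO2 the knockout group (KO) was Beclin1flox/flox-LysM-Cre+ and the wild-type group (WT) was Beclin1flox/flox-LysM-Cre-, so both groups carry the floxed alleles. In cohort KI the mutant group was Beclin1F121A/F121A (F121A) and the WT group came from littermates. LysM-Cre is expressed from the lysozyme locus of myeloid cells, and Beclin1 acts in autophagy. Each KO1 group holds 3 cultures, each summed from 3 repeat libraries. A KO2 group holds 8 libraries, or 7 for WT at 24 h, and a KI group 6. The labels do not say whether libraries of KO2 and KI came from separate mice, so p-values there measure the spread between libraries, which may be technical.

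Macrophages stimulated with LPS and IFN-gamma turn arginine into nitric oxide and citrulline through the inducible synthase encoded by Nos2. The enzyme needs tetrahydrobiopterin, whose synthesis starts with the product of Gch1, and arginine, which enters through the cationic amino acid transporters encoded by Slc7a1 and Slc7a2. Citrulline can be turned back into arginine by argininosuccinate synthase (Ass1) and argininosuccinate lyase (Asl). The arginases encoded by Arg1 (cytosol) and Arg2 (mitochondria) compete for the same arginine and release ornithine, from which ornithine decarboxylase (Odc1) makes the polyamine putrescine.

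In GENCODE vM21 on GRCm38, the genes lie on chromosomes 11 (Nos2, bases 78920787 to 78960254), 14 (Gch1, 47153895 to 47189413), 8 (Slc7a2, 40862396 to 40922308), 5 (Slc7a1, 148327410 to 148399904, and Asl, 130011258 to 130029247), 2 (Ass1, 31470207 to 31520672), 10 (Arg1, 24915221 to 24927484) and 12 (Arg2, 79130777 to 79156301, and Odc1, 17544794 to 17551505). All 9 are protein coding, and a count sums reads over a gene's exons. RefSeq promoters on GRCm38.p6 were matched for 4 of the 9 genes. Those of Ass1, Gch1 and Slc7a1 are shown because these 3 genes were called between genotypes in both KO2 and KI, and that of Odc1, which was not called there, is left out. Each line gives the 250 bases before a start, read 5′ to 3′ on the gene's strand, and capitals mark a match to a searched motif.
Ass1, chr2:31470020-31470269, plus strand: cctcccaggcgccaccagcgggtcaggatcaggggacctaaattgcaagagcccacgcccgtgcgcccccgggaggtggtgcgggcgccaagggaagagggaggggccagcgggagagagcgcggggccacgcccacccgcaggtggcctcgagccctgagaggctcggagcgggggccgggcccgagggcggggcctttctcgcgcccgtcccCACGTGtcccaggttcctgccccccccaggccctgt
Gch1, chr14:47189414-47189663, minus strand: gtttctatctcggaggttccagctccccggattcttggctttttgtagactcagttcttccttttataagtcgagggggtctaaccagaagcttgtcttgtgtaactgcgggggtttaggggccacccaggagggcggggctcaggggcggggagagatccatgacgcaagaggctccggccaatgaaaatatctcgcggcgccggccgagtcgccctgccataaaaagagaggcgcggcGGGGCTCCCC
Slc7a1, upstream start, chr5:148399905-148400154, minus strand: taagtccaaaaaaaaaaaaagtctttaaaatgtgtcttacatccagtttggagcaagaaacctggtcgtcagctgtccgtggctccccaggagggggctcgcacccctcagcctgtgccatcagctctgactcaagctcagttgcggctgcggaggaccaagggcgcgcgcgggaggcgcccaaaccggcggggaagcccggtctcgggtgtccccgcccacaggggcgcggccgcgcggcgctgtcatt
Slc7a1, second start, chr5:148392816-148393065, minus strand: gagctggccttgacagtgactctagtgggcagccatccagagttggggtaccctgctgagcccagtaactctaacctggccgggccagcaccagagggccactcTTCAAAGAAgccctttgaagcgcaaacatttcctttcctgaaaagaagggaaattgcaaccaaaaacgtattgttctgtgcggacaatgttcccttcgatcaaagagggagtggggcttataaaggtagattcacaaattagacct

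The motifs searched on both strands were the interferon-gamma activated site (GAS, TTCNNNGAA), the core of the interferon-stimulated response element (ISRE), the NF-kB consensus, the E-box CACGTG, the cAMP response element (TGACGTCA) and the amino acid response element (TGATGNAAN). Ass1 holds an E-box 36 to 31 bases before its RefSeq start, a motif found in 6.02% of 32851 promoters of the same length. That start lies downstream of the GENCODE gene start given above, so the E-box lies within the GENCODE gene. Gch1 holds a match to the NF-kB consensus in the last 10 bases before its start, as do 3.9% of promoters. The second Slc7a1 start has a GAS match 146 to 138 bases upstream, as do 7.02% of promoters, and the first has no match. The promoter of Odc1 has no match. A match is a run of letters and no measurement of binding.

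Libraries of KO1 held 1898574 to 6579185 counts in genes, those of KO2 1448218 to 15627379, and those of KI 3574158 to 11786453. Levels are in CPM, a gene's count per 1000000 counts in genes of its library. Becn1, the targeted gene, had 15, 15.5 and 29.4 CPM in the 3 resting KO1 KO cultures, against 46, 46.8 and 60.7 CPM in WT. In resting KO2 it had 1.93 to 7.32 CPM in KO libraries, against 34.4 to 49.2 CPM in WT. Its groups did not overlap at any time in either knockout cohort. It did not pass the test in F121A macrophages. The labels of 1 KO1 KO and 1 KI WT sample at 6 h give conflicting times in their fields, and both samples were grouped by title. In KO2, the female transcript Xist stood at 70.0 to 340 CPM in all WT libraries and at most 1.62 CPM in KO libraries, so sex and genotype cannot be told apart in that cohort. The 9 macrophage markers were all detected in every group, at summed levels of 6702 to 26721 CPM. Their sum differed between genotypes without overlap at 24 h in KO1 (8039 to 10504 CPM in KO, 12593 to 13932 CPM in WT) and KO2 (9928 to 11702 CPM in KO, 12628 to 17109 CPM in WT), and at 6 h in KI (10144 to 10599 CPM in F121A, 7282 to 9725 CPM in WT). The part of this in the genotype differences of those groups was not tested. In KI WT at 24 h, libraries 2, 4 and 6 stood apart from 1, 3 and 5, and in KO2 KO at 6 h libraries 1, 4 and 7 stood apart. Some results on these groups, but not all, are given with and without them.

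Log2 fold changes are from edgeR's quasi-likelihood test and are given ± their standard error. Called genes have a Benjamini-Hochberg adjusted p under 0.05 over all genes tested. CPM values use library totals alone, whereas fold changes use TMM scaling. TMM placed stimulated libraries 0.44 to 1.31 higher on the log2 scale against resting ones than library totals did, so time changes are relative to the median gene of a cohort. Between genotypes that shift was largest in KO2, at -0.19 at 0 h and -0.21 at 6 h. In bulk RNA, fewer cells expressing a gene and less RNA per cell cannot be told apart.

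Stimulation changed most of the 9 genes in WT macrophages of every cohort. At 6 h against 0 h, 7 were called in KO1 WT, 5 of them higher and 2 lower, where 56.7% of all genes tested were called. In KO2 WT 7 rose and 2 fell (70.8% of all genes called), and in KI WT 7 rose and 1 fell (73.5%). At 24 h against 0 h, 5 rose and 0 fell in KO1 WT (41.9%), 6 rose and 1 fell in KO2 WT (59.3%), and 8 rose and 0 fell in KI WT (63.8%). Between 6 h and 24 h, 3 rose and 3 fell in KO1 WT (54.6%), 3 rose and 5 fell in KO2 WT (59%), and 6 rose and 2 fell in KI WT (65.4%). The mutants had like counts. At 6 h, 6 rose and 2 fell in KO1 KO (55.3%), 7 rose and 2 fell in KO2 KO (74.3%), and 7 rose and 1 fell in F121A (74.5%). At 24 h against 0 h, 6 rose and 0 fell in KO1 KO (38.5%), 7 rose and 1 fell in KO2 KO (58.3%), and 8 rose and 0 fell in F121A (66.3%). Between 6 h and 24 h, 2 rose and 3 fell in KO1 KO (48.1%), 4 rose and 3 fell in KO2 KO (55.5%), and 5 rose and 1 fell in F121A (65.1%). With library totals alone the counts of genes lower in WT at 6 h were 3, 2 and 1 in KO1, KO2 and KI, and at 24 h against 0 h they were 1, 2 and 1. The median log2 fold change of the 9 genes at 6 h was 2.21 in KO1, 1.97 in KO2 and 3.05 in KI, against -0.09, -0.11 and 0.00 over all genes tested.

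**Figure D1:**
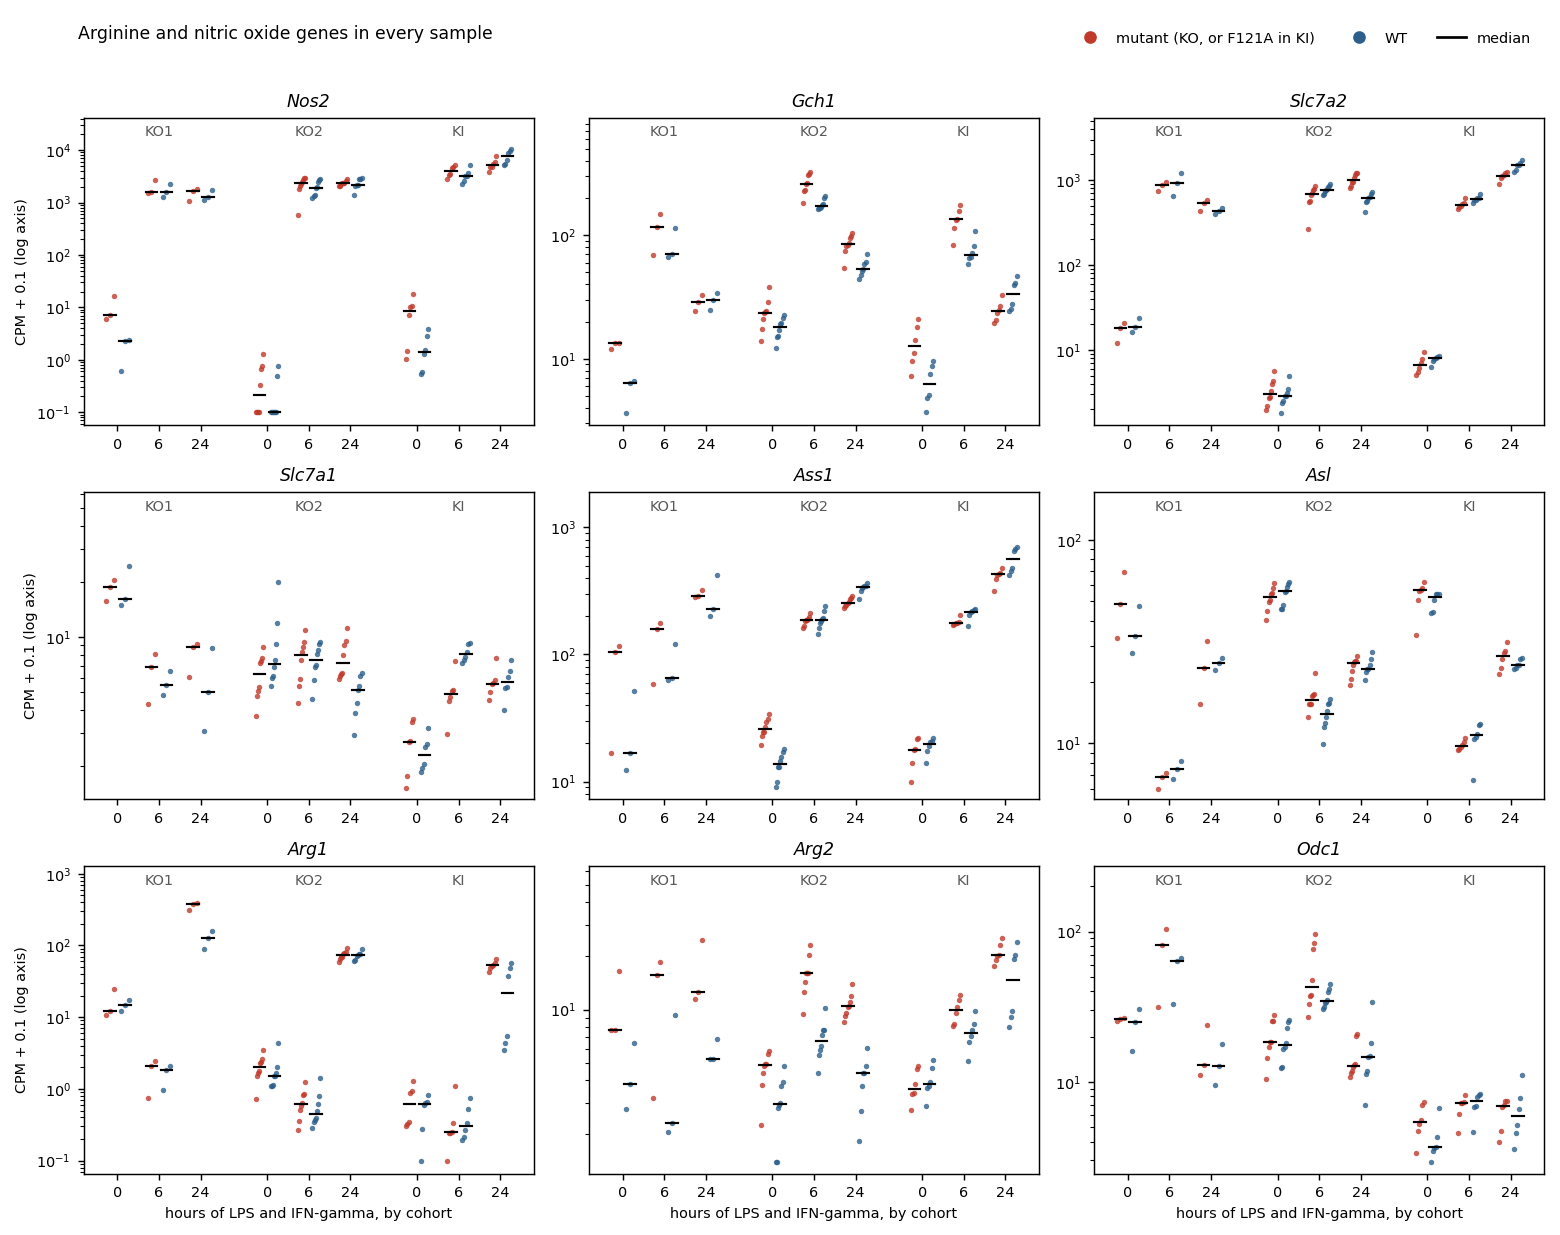
CPM of each of the 9 genes by time after LPS and IFN-gamma in the 3 cohorts on a log10 axis after adding 0.1, with 1 point per culture (KO1) or library (KO2 and KI), mutant left of WT. All stimulated samples lie above all resting ones for Nos2 and Slc7a2 in each cohort, and Arg1 is highest at 24 h.

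Nos2 was almost silent in resting WT macrophages and became one of the highest signals after stimulation. The KO1 WT cultures had 0.504, 2.22 and 2.29 CPM at 0 h, 1608, 2222 and 1286 CPM at 6 h and 1282, 1725 and 1100 CPM at 24 h. In KO2 WT, Nos2 had 0 counts in 6 of 8 resting libraries, 1234 to 2781 CPM at 6 h (median 1928) and 1378 to 2976 CPM at 24 h (median 2178). In KI WT it had 0.430 to 3.83 CPM at 0 h (median 1.32), 2223 to 5219 CPM at 6 h (median 3220) and 5258 to 10542 CPM at 24 h (median 7560). No stimulated library overlapped with a resting one in any cohort. At 6 h against 0 h the log2 fold change in WT was 11.03 ± 0.62 in KO1 and 12.22 ± 0.53 in KI (adjusted p = 8.38e-11 and 6e-24). In KO2, where resting WT libraries held 4 counts in all, the summed level at 6 h was 18061 times the resting one, with an exact counting interval of 7054 to 66288. That interval covers counting error only. From 6 h to 24 h the call was for a further rise in KI WT (0.88 ± 0.31, adjusted p = 0.0135, and 0.70 with adjusted p = 0.0984 without libraries 2, 4 and 6), and the change did not pass in KO1 (-0.31 ± 0.40) or KO2 (-0.11 ± 0.19).

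Mutant and WT macrophages differed in Nos2 at rest in KI, and the 6 h and 24 h levels did not pass the test in any cohort. The resting F121A libraries had 17.6, 10.0, 1.36, 0.960, 10.5 and 7.18 CPM, against 0.430, 0.489, 3.83, 2.80, 1.22 and 1.42 CPM in WT. Libraries 3 and 4 of F121A lay within the WT range and the other 4 above it. The log2 fold change was 2.28 ± 0.48 (adjusted p = 0.00264), which did not pass when only those 6 libraries per group were fitted (2.30, adjusted p = 0.0724). In resting KO1, KO cultures had 7.02, 16.2 and 5.98 CPM, against 0.504, 2.22 and 2.29 CPM in WT. These groups did not overlap, but the log2 fold change of 2.37 ± 0.47 did not pass over all genes (adjusted p = 0.12) and did in DESeq2 (adjusted p = 1.83e-05). The same cultures differed in neutrophil markers, whose 10 genes summed to 300 to 1326 CPM in KO and 145 to 227 CPM in WT with none at 0, and the part of this in the Nos2 values was not tested. Resting KO2 libraries held 14 Nos2 counts in all in KO (0 in 4 of 8) and 4 in WT, too few to compare. At 24 h, F121A libraries had 3776 to 7755 CPM (median 5123), against 5258 to 10542 CPM in WT (-0.46 ± 0.31, adjusted p = 0.463, and 0.00584 without the filter on low counts).

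Gch1, the first enzyme of tetrahydrobiopterin synthesis, peaked at 6 h in every cohort and genotype. In WT it had 6.24, 3.51 and 6.50 CPM at 0 h in KO1, 70.2, 66.3 and 115 CPM at 6 h and 29.7, 24.8 and 34 CPM at 24 h. The WT rise at 6 h was 5.01 ± 0.41 in KO1, 4.16 ± 0.13 in KO2 and 4.77 ± 0.24 in KI on the log2 scale, and the fall between 6 h and 24 h was called in each cohort (-1.55 ± 0.35, -2.08 ± 0.12 and -1.47 ± 0.20). The part of the motif match in the promoter shown above in these changes was not tested.

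F121A macrophages had more Gch1 than WT at rest and at 6 h. At 0 h the F121A libraries had 7.17 to 21 CPM (median 12.5), against 3.58 to 9.51 CPM in WT (median 6.20), with a log2 fold change of 1.04 ± 0.24 (adjusted p = 0.00693). With replicate numbers summed in pairs it was 0.98 and did not pass (adjusted p = 0.0685). At 6 h they had 83.7 to 174 CPM (median 134), against 58.4 to 107 CPM in WT (median 69.3), with 0.87 ± 0.19 (adjusted p = 0.00151). Neutrophil markers summed to 8.60 to 14.4 CPM in F121A and 15.8 to 25.97 CPM in WT at 6 h, with Elane and Retnlg at 0 in both and Ly6g at 0 in WT, and their part was not tested. At 24 h the sign was the opposite, at 19.4 to 32.5 CPM (median 24.0) in F121A, against 24.1 to 46.3 CPM in WT (median 33.5), and did not pass (-0.44 ± 0.20, adjusted p = 0.211, and 0.0135 without the filter). KO2 showed another timing, with higher Gch1 in KO at 6 h (0.34 ± 0.11, adjusted p = 0.0278) and 24 h (0.62 ± 0.12, adjusted p = 1.07e-04). At 24 h the KO2 KO libraries had 54 to 104 CPM (median 84.8), against 44.3 to 69.7 CPM in WT (median 52.8), and the ranges overlapped. The call at 6 h was lost without the KO2 KO libraries 1, 4 and 7 (adjusted p = 0.141) and with replicate numbers summed in threes (adjusted p = 0.114). In resting KO1 the KO cultures had 11.8, 13.3 and 13.3 CPM, against 6.24, 3.51 and 6.50 CPM in WT, with no overlap and no call (1.13 ± 0.37, adjusted p = 0.491).

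Slc7a2, the transporter that serves stimulated macrophages, rose as strongly as any member but Nos2. In KO1 WT it had 18.6, 16.4 and 23.9 CPM at 0 h, 919, 1196 and 647 CPM at 6 h and 470, 432 and 397 CPM at 24 h. In KO2 WT the medians were 2.78, 770 and 612 CPM at 0 h, 6 h and 24 h, and in KI WT they were 7.88, 603 and 1491 CPM. The rise at 6 h was 6.57 ± 0.41 in KO1, 8.85 ± 0.22 in KO2 and 7.52 ± 0.15 in KI. After 6 h the cohorts parted, since WT levels fell by 24 h in KO1 (-1.08 ± 0.32) and KO2 (-0.74 ± 0.15) and rose in KI (0.96 ± 0.11), and this difference between cohorts was not tested. Slc7a2 shares 635 exonic bases with the noncoding gene Gm26584 on the opposite strand, which was not counted. The reads carry no strand, so reads from Gm26584 could be counted as Slc7a2, and their part was not tested.

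Slc7a2 followed a different course in KO2 KO than in KO2 WT. At 6 h the KO libraries had 572, 841, 549, 705, 760, 263, 786 and 660 CPM, against 658 to 889 CPM in WT (median 770), and the log2 fold change was -0.47 ± 0.15 (adjusted p = 0.0197). It did not pass with library totals (adjusted p = 0.145). Without KO libraries 1, 4 and 7, which include the lowest 3 values, it did not pass (adjusted p = 0.364). At 24 h the KO libraries had 807 to 1222 CPM (median 1005), against 417 to 722 CPM in WT (median 612). All 8 KO libraries lay above all 7 WT libraries (0.77 ± 0.15, adjusted p = 1.66e-04). The 5 monocyte markers summed to 29.9 to 45.7 CPM in these KO libraries and 14.3 to 23.3 CPM in WT with none at 0, the macrophage sum was lower in KO as given above, and the part of either was not tested. Between 6 h and 24 h Slc7a2 rose in KO (0.51 ± 0.15, adjusted p = 0.00273, and 0.24 with adjusted p = 0.115 without KO libraries 1, 4 and 7 of 6 h) and fell in WT (-0.74 ± 0.15, adjusted p = 3.67e-05). The joint test of genotype by time passed (adjusted p = 6.45e-05). In KI at 24 h the direction was the reverse, with 896 to 1238 CPM in F121A (median 1120), against 1235 to 1744 CPM in WT (median 1491). The log2 fold change of -0.38 ± 0.11 passed (adjusted p = 0.0176) and did not without WT libraries 1, 3 and 5 (adjusted p = 0.424).

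Slc7a1, the constitutive transporter of cationic amino acids, moved less and not in 1 direction over the cohorts. In resting WT the KO1 cultures had 14.8, 24.2 and 16 CPM, while KO2 libraries had 5.31 to 19.7 CPM and KI libraries 1.76 to 3.11 CPM. At 6 h the log2 change in WT was 3.05 ± 0.20 in KI (adjusted p = 7.29e-18) and -0.71 ± 0.31 in KO1 (adjusted p = 0.0574). With the KO1 culture as a block, which pairs the times of each culture, Slc7a1 fell in WT at 6 h (-0.69, adjusted p = 0.0382) and at 24 h against 0 h (-0.75, adjusted p = 0.031, and 0.0674 without the block). In KO2 WT it was 0.57 ± 0.21 (adjusted p = 0.0137) with TMM and -0.27 with library totals (adjusted p = 0.251), so no direction is given for that cohort.

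Between genotypes Slc7a1 was called lower in resting KO2 KO and higher there at 24 h. At 0 h KO libraries had 3.61 to 8.70 CPM (median 6.20), against 5.31 to 19.7 CPM in WT (median 7.07), with -0.71 ± 0.22 (adjusted p = 0.0276). There was no call with library totals (adjusted p = 0.113) or with only the 2 groups fitted (adjusted p = 0.0818). Of these KO libraries 4 lay above the WT median and 4 below it. WT library 8 had 19.7 CPM and the other WT libraries 5.31 to 11.8 CPM, and its part in the call was not tested. At 24 h KO libraries had 5.82 to 11.1 CPM (median 7.09), against 2.83 to 6.29 CPM in WT (median 5.06), with 0.75 ± 0.22 (adjusted p = 0.0152). The joint test of genotype by time passed in KO2 (adjusted p = 0.00165). In KI the call was at 6 h, where F121A libraries had 2.89 to 7.31 CPM (median 4.81), against 7.10 to 9.19 CPM in WT (median 7.96), with -0.69 ± 0.17 (adjusted p = 0.00572).

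Ass1, which joins citrulline to aspartate, rose at 6 h and further at 24 h in WT of each cohort. KO1 WT cultures had 16.8, 12.3 and 51.6 CPM at 0 h, 62.4, 65.6 and 120.7 CPM at 6 h and 200, 227 and 425 CPM at 24 h, with culture 35 highest each time. Medians in WT at 0 h, 6 h and 24 h were 13.7, 186 and 337 CPM in KO2 and 19.6, 218 and 567 CPM in KI. At 24 h against 0 h the log2 fold change was 4.41 ± 0.74, 5.06 ± 0.15 and 5.78 ± 0.14 in KO1, KO2 and KI. In KO1 KO the change between 6 h and 24 h was called with the culture as a block (1.30, adjusted p = 0.0154) and not without it, and that in KO1 WT did not pass in DESeq2 (adjusted p = 0.0538). Of the 38-base words in Ass1 transcripts, 41.5% also occur in transcripts of another gene, Gm5424, which had 0.503 to 71.3 CPM over all samples, so reads there could be split or dropped by the counting.

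Ass1 was higher in KO2 KO at rest and not later. At 0 h KO libraries had 19.3 to 34.2 CPM (median 25.7), against 8.89 to 17.8 CPM in WT (median 13.7), and all 8 KO libraries lay above all 8 WT libraries (0.77 ± 0.14, adjusted p = 6.63e-05). Of all genes tested, 8.28% were called there. Monocyte markers also differed in these libraries, 5 genes summing to 12.1 to 25 CPM in KO and 5.49 to 11.3 CPM in WT with none at 0, and their part was not tested. At 24 h the KO libraries had 233 to 287 CPM (median 255), against 273 to 368 CPM in WT (median 337). That difference of -0.36 ± 0.12 passed (adjusted p = 0.046) and did not with DESeq2 (adjusted p = 0.0597), with DESeq2's size factors in edgeR (0.0687), without the filter (0.0574) or with replicate numbers summed (0.248). The joint test of genotype by time passed (adjusted p = 8.82e-06). In KI at 24 h F121A libraries had 318 to 481 CPM (median 427), against 425 to 696 CPM in WT (median 567), with -0.41 ± 0.11 (adjusted p = 0.0176) and adjusted p = 0.837 without WT libraries 1, 3 and 5.

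Asl, which releases arginine from argininosuccinate, fell at 6 h while Ass1 rose. In KO1 WT it had 33.5, 47.4 and 27.7 CPM at 0 h, 8.10, 7.35 and 6.58 CPM at 6 h and 26.1, 22.8 and 24.6 CPM at 24 h. The log2 change at 6 h was -1.27 ± 0.23 in KO1, -1.14 ± 0.11 in KO2 and -1.04 ± 0.11 in KI (adjusted p = 1.1e-04, 3.44e-14 and 1.67e-11). At 24 h it was back above the 6 h level in each cohort, and against 0 h it was lower in KO2 (-0.72 ± 0.10) and did not pass in KO1 or KI. In KI WT its change of -0.16 (adjusted p = 0.17) passed as a fall in DESeq2 (-0.26, adjusted p = 0.00952), with DESeq2's size factors in edgeR (adjusted p = 0.0279), with only those groups fitted (0.0293), with replicate numbers summed (0.0309) and with library totals (-1.04, adjusted p = 2.11e-10). In KO1 WT it passed as a rise in voom on single libraries (0.45, adjusted p = 0.00974), which are repeats of 3 cultures. No genotype comparison called Asl. The smallest adjusted p was 0.142, in resting KO2, where KO libraries had 40.1 to 61.2 CPM and WT libraries 45.6 to 61.8 CPM.

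Arg1 rose late in all 3 cohorts, with low levels at 6 h. In KO1 WT it had 14.5, 11.9 and 17.1 CPM at 0 h, 1.96, 0.858 and 1.73 CPM at 6 h and 158, 88.4 and 126 CPM at 24 h. In KO2 WT it had 0.985 to 4.21 CPM at 0 h, 0.189 to 1.33 CPM at 6 h and 60.8 to 88.4 CPM at 24 h. The fall at 6 h was called in WT of KO1 (-2.23 ± 0.36, adjusted p = 3.08e-05) and KO2 (-0.84 ± 0.37, adjusted p = 0.0397, and 0.0525 with replicate numbers summed). The KO2 value rests on few counts, 59 at 0 h and 18 at 6 h over 8 WT libraries each. In KI, where at most 0.717 CPM was found in resting WT, the change at 6 h could not be told from 0 (0.46 ± 1.43). At 24 h against 0 h the log2 fold change in WT was 4.11 ± 0.32 in KO1, 5.94 ± 0.18 in KO2 and 6.75 ± 0.64 in KI. The KI value was 7.66 without WT libraries 1, 3 and 5 and 4.18 without 2, 4 and 6.

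At 24 h Arg1 did not pass the main edgeR test between genotypes in any cohort, and passed under several alternatives in KO1 and KI. The KO1 KO cultures had 387, 308 and 374 CPM, against 158, 88.4 and 126 CPM in WT, with no overlap (1.46 ± 0.29, adjusted p = 0.162). It passed in DESeq2 (adjusted p = 7.37e-04) and without the filter (9.74e-05). It also passed in voom on single libraries (7.4e-09), where the 9 libraries of a group are repeats of 3 cultures. The correlation fitted within a culture was 0.0872, so that p-value measures mostly the spread between repeats. Without KO culture 37 the edgeR test passed (1.57, adjusted p = 0.0432). The 10 neutrophil markers summed to 29.9 to 104 CPM in those KO cultures and 22.2 to 25.9 CPM in WT with Elane at 0 in both, and their part was not tested. In KI the F121A libraries had 57.5, 42.7, 64.0, 52.4, 53.8 and 48.3 CPM. The WT libraries split, with 5.40, 3.39 and 4.26 CPM in numbers 1, 3 and 5 and 56.2, 37.4 and 48.2 CPM in numbers 2, 4 and 6. F121A libraries lay above the first 3 and around the others. The log2 fold change was 1.10 ± 0.37 (adjusted p = 0.0643). It passed without the filter (1.09, adjusted p = 3.38e-13) and with replicate numbers summed in pairs (1.29, adjusted p = 6.82e-06). Each WT sum joined libraries from both sides of the split. The p-value of the sums therefore does not measure the spread between single WT libraries. With the replicate number as a block it also passed (1.64, adjusted p = 0.00381), although those numbers were not taken to pair the KI samples. It was 0.19 (adjusted p = 0.811) without WT libraries 1, 3 and 5, and 3.67 (adjusted p = 8.18e-14) without 2, 4 and 6. In KO2 at 24 h KO libraries had 59.4 to 91.9 CPM, against 60.8 to 88.4 CPM in WT (0.03 ± 0.13, adjusted p = 0.926).

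**Figure D2:**
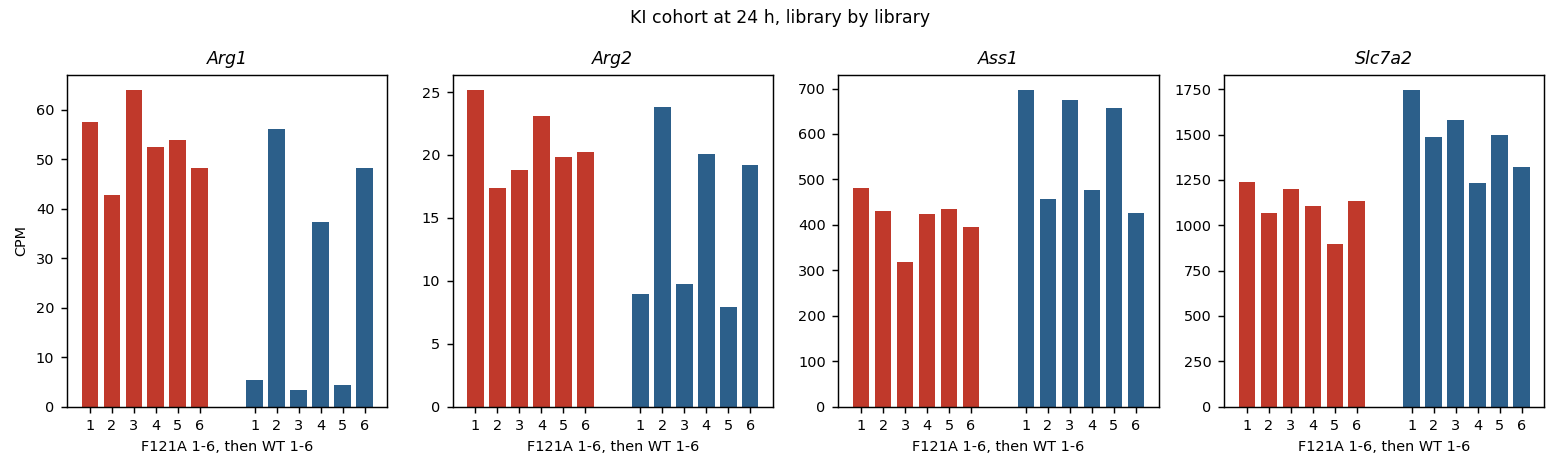
CPM of Arg1, Arg2, Ass1 and Slc7a2 in each F121A (left) and WT (right) library of cohort KI at 24 h, with 1 bar per library over its number. WT libraries 1, 3 and 5 have 3.39 to 5.40 CPM of Arg1, and WT libraries 2, 4 and 6 have 37.4 to 56.2 CPM.

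The split of KI WT at 24 h also held other members. Arg2 had 8.92, 9.76 and 7.89 CPM in libraries 1, 3 and 5, and 23.8, 20.1 and 19.2 CPM in 2, 4 and 6. Ass1 had 696, 675 and 657 CPM in the first 3, and 457, 477 and 425 CPM in the others. The mean correlation of deviations from the group mean over all genes tested was 0.0856 within these sets and -0.388 across them. Dendritic cell markers, 5 genes with none at 0, summed to 55.1 to 70.1 CPM in F121A and 70.2 to 174 CPM in WT at this time. Neutrophil markers summed to 5.03 to 7.68 CPM in F121A and 9.71 to 13.8 CPM in WT, with Mpo and Elane at 0 in F121A and Elane, Ltf and Retnlg at 0 in WT. The part of either in these values was not tested.

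Arg2, the mitochondrial arginase, was higher in KO2 KO at 6 h and 24 h. At 6 h KO libraries had 9.38 to 22.9 CPM (median 15.9), against 4.27 to 10.1 CPM in WT (median 6.58), with 1.01 ± 0.17 (adjusted p = 1.34e-05). At 24 h they had 8.43 to 13.8 CPM (median 10.3), against 1.72 to 5.95 CPM in WT (median 4.28), and the groups did not overlap (1.38 ± 0.18, adjusted p = 5.51e-08). Resting KO libraries had 2.15 to 5.77 CPM, against 1.28 to 4.73 CPM in WT, with no call (0.38 ± 0.22, adjusted p = 0.335). The joint test of genotype by time passed (adjusted p = 0.0387). It did not with library totals (adjusted p = 0.142), without the filter (0.0611) or with replicate numbers summed (0.109). Monocyte markers summed to 29.9 to 45.7 CPM in KO2 KO at 24 h and 14.3 to 23.3 CPM in WT, and dendritic cell markers at 6 h to 35.2 to 57.3 CPM in KO and 17.3 to 26.2 CPM in WT, with none of either list at 0. Their part in the Arg2 values was not tested.

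In KO1 the Arg2 values of KO cultures were also above those of WT at 0 h and 24 h, without a call. They were 7.57, 16.4 and 7.60 CPM at 0 h, against 3.73, 6.38 and 2.65 CPM in WT. At 24 h they were 24.4, 12.5 and 11.4 CPM, against 5.14, 5.18 and 6.71 CPM in WT. At 6 h the groups overlapped, with 18.3, 3.06 and 15.5 CPM in KO and 1.96, 2.21 and 9.23 CPM in WT. The log2 fold changes were 1.13 ± 0.61, 1.66 ± 0.61 and 1.41 ± 0.59 at 0 h, 6 h and 24 h (adjusted p = 0.852, 0.997 and 0.657), and all 3 passed without the filter (adjusted p = 0.0123, 5.31e-07 and 6.86e-05). In KI Arg2 did not pass at 24 h (0.52 ± 0.19, adjusted p = 0.106), where F121A libraries had 17.4 to 25.1 CPM. It passed without the filter (adjusted p = 0.0243) and with replicate numbers summed (0.0195). Each summed WT unit joined libraries from both sides of the WT split, so the latter p-value does not measure that spread. Without WT libraries 2, 4 and 6 Arg2 passed (1.26, adjusted p = 1.97e-06). Arg2 shares 285 exonic bases with Vti1b on the opposite strand, and the reads carry no strand. Vti1b was not called in KO2 at 24 h (-0.12 ± 0.10, adjusted p = 0.519) or in any other genotype comparison.

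Odc1, the first enzyme of polyamine synthesis, peaked at 6 h in KO1 and KO2. In KO1 WT it had 25, 16 and 30.6 CPM at 0 h, 66.6, 32.6 and 63.9 CPM at 6 h and 12.6, 9.40 and 17.6 CPM at 24 h. The log2 change at 6 h was 2.21 ± 0.44 in KO1, 1.75 ± 0.21 in KO2 and 2.01 ± 0.25 in KI. At 24 h against 0 h it did not pass in KO1 (0.16 ± 0.43) or KO2 (0.19 ± 0.21) and did in KI (1.52 ± 0.24). In KI the 6 h and 24 h levels overlapped in both genotypes, and the change of -0.49 ± 0.23 between them in WT did not pass (adjusted p = 0.0577). No genotype comparison called Odc1 with TMM, although KO2 KO libraries at 6 h spread from 26.8 to 95.7 CPM (median 42.5), against 30.2 to 44.3 CPM in WT. The highest 3 of them, 95.7, 84.0 and 76.8 CPM, were libraries 1, 4 and 7. The log2 fold change there was 0.36 ± 0.19 (adjusted p = 0.225), and with library totals 0.60 (adjusted p = 0.0412). Of the 38-base words of Odc1 transcripts, 28.5% also occur in transcripts of 21 other genes.

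Over the 9 genes, genotype calls came from KO2 and KI. In KO1 edgeR called 0 of 9 at 0 h, 6 h and 24 h, where 0.0219%, 0.0219% and 0.0073% of all genes were called. At an unadjusted p under 0.05 edgeR had 3, 1 and 2 of the 9, and DESeq2 called 1, 0 and 1 of the 9. In KO2 2, 3 and 5 members were called (8.28%, 15.4% and 11.3% of all genes), and in KI 2, 2 and 2 (2.94%, 11.5% and 7.2%). With library totals the calls in KO2 were 2 higher and 0 lower at 0 h and 3 higher and 0 lower at 6 h, against 1 and 1, and 2 and 1, with TMM. The share of calls over all genes that were higher in KO2 KO moved with it, being 85.9% with library totals and 46.3% with TMM at 0 h, and 86.7% and 49.6% at 6 h.

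**Figure D3:**
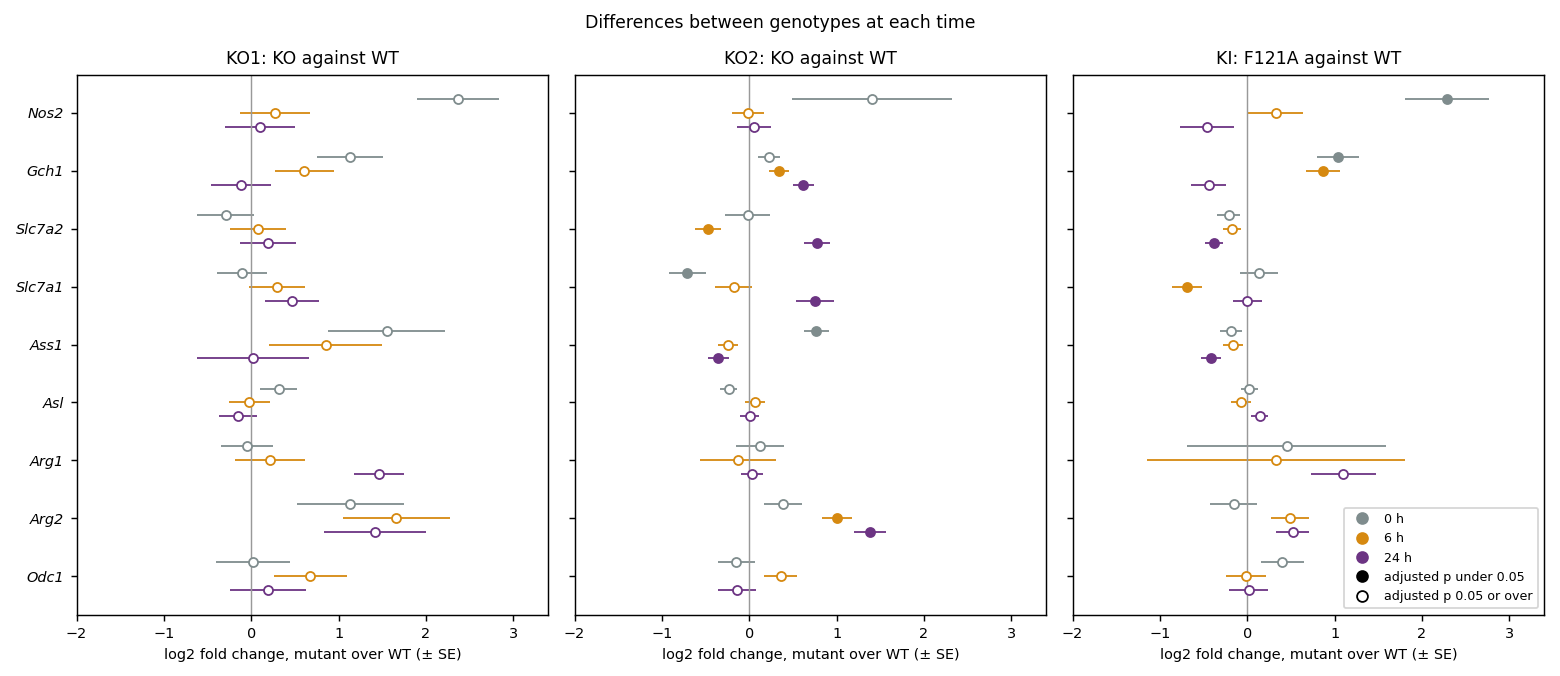
Log2 fold change of mutant over WT for each of the 9 genes at 0 h, 6 h and 24 h in KO1, KO2 and KI, with bars of 1 standard error, and filled points where the adjusted p is under 0.05. The filled points are 0 in KO1, and in KO2 at 24 h Arg2 stands highest at 1.38.

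The joint test of genotype by time called 4 of the 9 genes in KO2 (11.9% of all genes), namely Arg2, Ass1, Slc7a1 and Slc7a2, and 2 in KI (8.29%), Nos2 and Gch1 (adjusted p = 0.00471 and 9.93e-04). Without KI WT libraries 2, 4 and 6 the KI count was 5. In KO1 edgeR called 0 of the 9, as of all genes, with 2 at an unadjusted p under 0.05, and DESeq2 called 1. The effect of the knockout in KO2 minus that of F121A in KI was tested in 1 fit of both cohorts. It called Ass1 at 0 h (0.95 ± 0.20, adjusted p = 5.85e-04), where 3.87% of all genes were called. At 6 h edgeR called 0 of the 9 (12.2%), with 2 at an unadjusted p under 0.05, and DESeq2 called 0. At 24 h it called Slc7a2 (1.15 ± 0.20, adjusted p = 1.02e-05), Gch1 (1.05 ± 0.23, adjusted p = 5.19e-04) and Arg2 (0.86 ± 0.27, adjusted p = 0.0323), where 7.1% were called. Without KI WT libraries 2, 4 and 6 the Arg2 difference was 0.10 (adjusted p = 0.891), and with replicate numbers summed it was 0.74 (adjusted p = 0.0975). Sex, which differs between KO and WT in KO2, is part of these differences and cannot be told apart from the knockout.

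**Figure D4:**
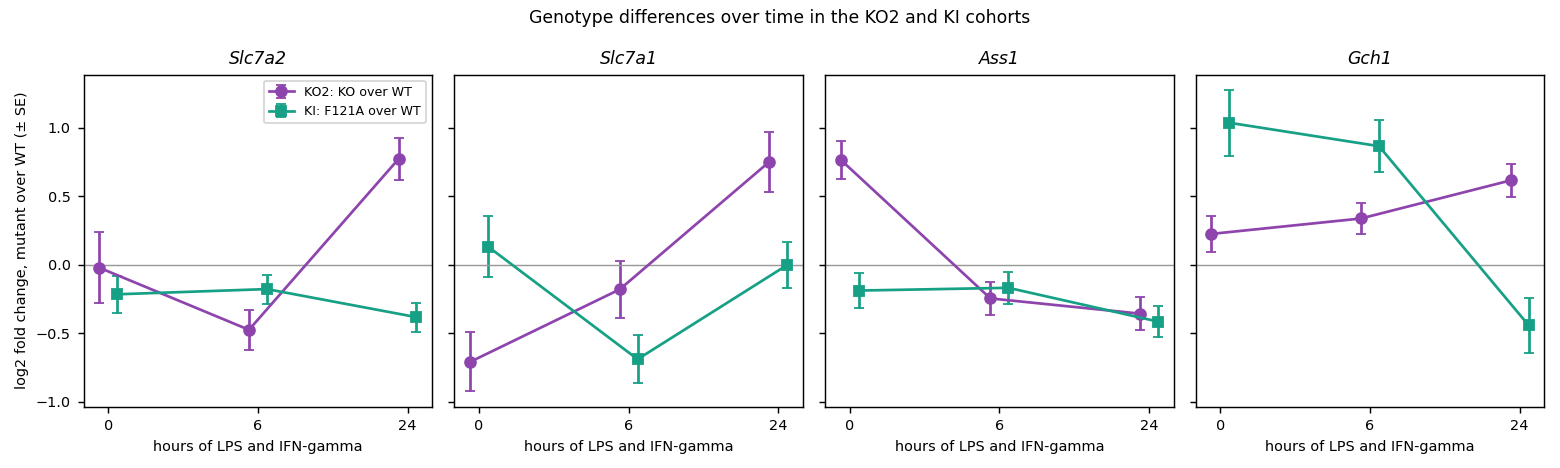
Log2 fold change of mutant over WT (edgeR, bars of 1 standard error) for Slc7a2, Slc7a1, Ass1 and Gch1 at 0 h, 6 h and 24 h, with KO over WT in KO2 and F121A over WT in KI as separate lines. At 24 h the Slc7a2 value is 0.77 in KO2 and -0.38 in KI, and that of Gch1 0.62 and -0.44.

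Levels of different genes were compared per kilobase of exon in WT samples. At rest Nos2 was the lowest of the 9 in KO1 and KO2, at 0.378 ± 0.229 and 0.0295 ± 0.0567 CPM per kb (SD, n = 3 and 8). Asl led in resting KO2 and KI, at 11.2 ± 1.39 and 10.4 ± 1.03 CPM per kb. In resting KO1 the means of Ass1, Asl, Odc1 and Arg1 lay between 6.51 and 11.1 CPM per kb and within each other's spread. At 6 h Nos2 led in all 3 cohorts, at 386 ± 108, 443 ± 140 and 757 ± 238 CPM per kb, and Slc7a2 was next in KO1 (101 with an SD of 30). In KO2 Slc7a2 (85 ± 8.59) and Ass1 (78.2 ± 12.4) lay within each other's spread. At 24 h the order was Nos2, Ass1 and Slc7a2 in KO2 (529 ± 129, 137 ± 12.5 and 65.6 ± 11) and KI (1737 ± 515, 234 ± 51.3 and 162 ± 20.0). In KO1 at 24 h Arg1 (55.8 ± 15.7) and Slc7a2 (47.4 ± 3.95) lay within each other's spread behind Nos2 and Ass1. Exon length from the annotation overstates the counted length where a gene uses few of its isoforms, so orders among close genes are rough.

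**Figure D5:**
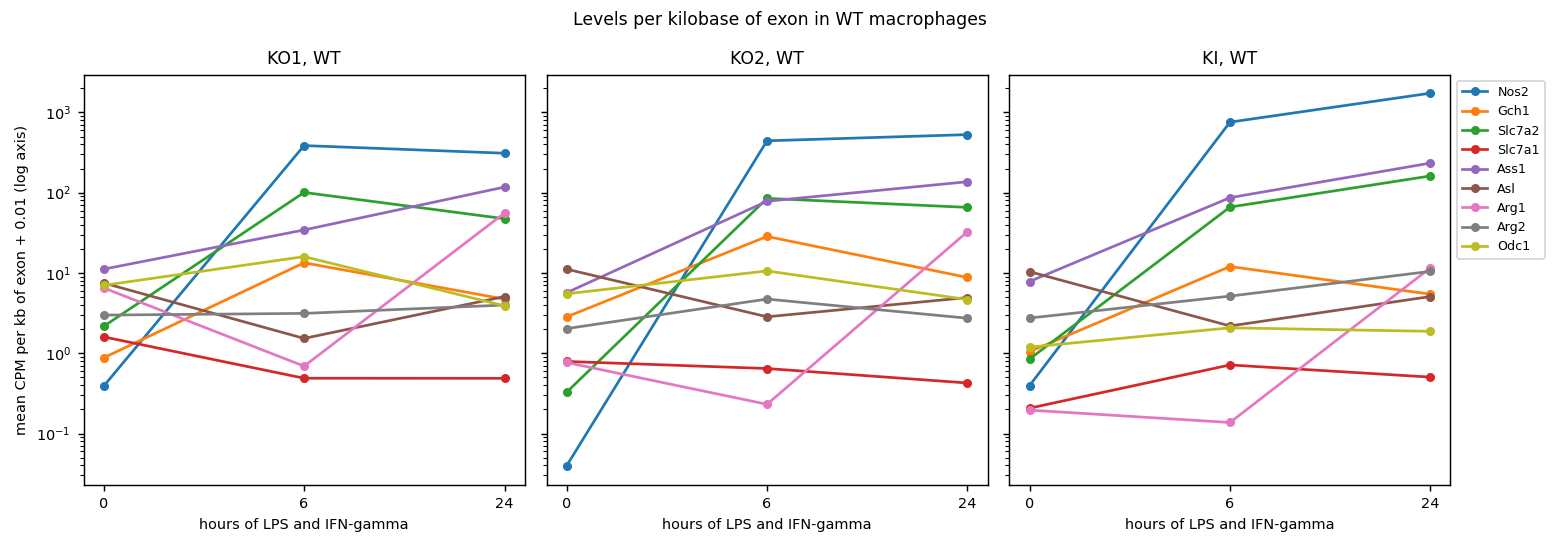
Mean CPM per kilobase of exon of the 9 genes in WT samples of each cohort at 0 h, 6 h and 24 h, on a log10 axis after adding 0.01, with 1 line per gene. Nos2 is the lowest line at 0 h in KO1 and KO2 and the highest at 6 h and 24 h in all 3 cohorts.

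Group means of log2(CPM + 1) were taken as deviations from each gene's mean over the groups of its cohort. The genes whose deviations were most like those of Nos2 over the 18 groups were Gbp7 and Upp1 (Pearson r of 0.997 for both), Slamf8 (0.996), Cxcl10 and Sod2 (0.995 for both), among 10611 genes compared. Of the members, Slc7a2 stood nearest to Nos2 (r = 0.990), followed by Ass1 (0.937) and Gch1 (0.836), and Asl ran against it (-0.789). For Arg1 the nearest were Fanca (0.960), D330045A20Rik (0.957), Tmem140 (0.956), Gm13012 (0.955) and Grina (0.949). The 18 points share cohorts and time points, and these values are descriptions without a test.

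Other genes of the pathway were listed by role, 67 in all, of which 55 were tested in KO1 and 53 in KO2 and KI. In WT at 6 h, 8 rose and 29 fell in KO1, 14 rose and 32 fell in KO2, and 14 rose and 28 fell in KI, and 8 rose and 24 fell in all 3 cohorts. These calls were 67.3%, 86.8% and 79.2% of the list genes tested, against 56.7%, 70.8% and 73.5% of all genes. The median over the list was -0.95, -0.80 and -0.61, against -0.09, -0.11 and 0.00 over all genes. The transcription factors known to act on Nos2 or Arg1 went the other way, with 8 of 11 higher in each cohort. Irf1, which binds interferon response elements, had a mean log2 fold change of 6.17 over the cohorts, followed by Irf8 (5.05), Stat3 (4.23) and Hif1a (3.99). Among those lower in all 3 were Paox (-3.04), a polyamine oxidase, Atp13a2 (-3.16), a lysosomal polyamine transporter, Aldh4a1 (-2.61) of proline breakdown, Nostrin (-2.56) and Spr (-2.32), the last enzyme of tetrahydrobiopterin synthesis. Of the 5 tested genes of that cofactor beside Gch1, 4, 5 and 3 fell at 6 h in KO1, KO2 and KI. With library totals the counts at 6 h were 6 higher and 43 lower, 11 and 39, and 10 and 40.

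At 24 h 16 rose and 16 fell in KO1, 15 rose and 25 fell in KO2, and 19 rose and 27 fell in KI, and 12 rose and 13 fell in all 3. These were 58.2%, 75.5% and 86.8% of the list genes tested, against 41.9%, 59.3% and 63.8% of all genes. The list's median was -0.15, -0.31 and -0.40, against -0.11, -0.03 and 0.03 over all genes. All 4 creatine genes tested fell in each cohort, led by Ckb, a creatine kinase, at -4.43 on average. Resting KO2 WT libraries had 434 to 587 CPM of Ckb, and at 24 h 17.6 to 36.2 CPM. Gamt, which makes creatine, averaged -2.73. Sat1, which acetylates polyamines, averaged -2.12, Ddah2, which breaks down a methylarginine inhibitor of nitric oxide synthases, -2.77, and Nostrin -3.62. Nos1, the neuronal synthase, rose by 2.46 on average. With library totals the counts at 24 h were 8 higher and 37 lower, 10 and 34, and 13 and 36.

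Between genotypes, calls among the listed genes were 11.3%, 20.8% and 11.3% of those tested in KO2 at 0 h, 6 h and 24 h, against 8.28%, 15.4% and 11.3% of all genes. In KI they were 3.77%, 13.2% and 15.1%, against 2.94%, 11.5% and 7.2%. In KO2, 3 rose and 3 fell at 0 h, 4 rose and 7 fell at 6 h and 2 rose and 4 fell at 24 h, and with library totals 8 and 1, 10 and 5, and 2 and 5. Ckb was lower in KO at all 3 times (-0.57 ± 0.12, -0.74 ± 0.13 and -1.29 ± 0.15, adjusted p = 0.00114, 1.59e-05 and 1.81e-09). Gatm, of creatine synthesis, was higher in resting KO (0.41 ± 0.12) and lower at 6 h (-0.89 ± 0.13, adjusted p = 2.85e-07). Slc7a7, which with its partner exports arginine, was lower at 6 h (-0.86 ± 0.16, adjusted p = 9.01e-05), and Oaz1, the antizyme that inhibits ornithine decarboxylase, was lower at 24 h (-0.58 ± 0.10, adjusted p = 1.94e-05). In KI, 2 rose and 0 fell at 0 h, 6 rose and 1 fell at 6 h and 5 rose and 3 fell at 24 h. Rela, an NF-kB subunit, was higher in F121A at 0 h (0.87 ± 0.16, adjusted p = 6.43e-04) and 6 h (1.42 ± 0.16, adjusted p = 2.02e-08). At 6 h Gatm (1.22 ± 0.16) and Slc7a7 (0.90 ± 0.19, adjusted p = 0.00101) were also higher in F121A. In KO1 edgeR called 0 of 55 at any time, with 4, 7 and 2 at an unadjusted p under 0.05 at 0 h, 6 h and 24 h.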

How the data were processed

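Smart-Seq2 libraries (oligo-dT primed, no strand, no molecular barcodes, paired reads of 38 bases) were made per the labels' protocols. The authors deposited raw read counts per gene symbol and library, 1 table per cohort, made with TopHat and HTSeq on mm10 per the submitters' processing notes (versions not given in the sources used here). Values are whole numbers, with 1448218 to 15627379 counts per library, and intervals cover counting error only.

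KO1 repeats were summed to 18 units of 3 per group, and KO2 and KI libraries were units. In edgeR 4.0.16 (R 4.3.3), filterByExpr removed low genes, TMM scaled the rest, and glmQLFit was run once per cohort over its 6 groups. Of all symbols, 13693, 10794 and 11500 were tested in KO1, KO2 and KI and 11782 in the fit of KO2 with KI. Standard errors were taken from each fold change and the root of its F statistic. The 9 genes were given in advance by name and, like the pathway and marker lists, were chosen with earlier results of these data known. Of 70 listed pathway entries 67 were distinct genes of the tables. Named pathway genes are, per comparison, up to 5 called with the smallest adjusted p (genotype), or the 5 highest and 5 lowest mean log2 fold changes among those called in 1 direction in all 3 cohorts (time). One gene that this rule names is not reported here. The fits were tested on simulated data.

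Alternatives were DESeq2 1.42.0, edgeR with DESeq2's size factors, no filter, only the compared groups, the replicate number as a block, summed replicate numbers, conflicting labels left out, each KO1 culture left out and voom (limma 3.58.1) on single KO1 libraries. The voom fit gave libraries of a culture 1 correlation of 0.0872, so its p-values measure mostly the spread between repeats. Library totals alone and the sets of libraries that stood apart were added after seeing the data. In KO1 the titles repeat each number at all 3 times. Deviations of same-numbered samples correlated at over 0.1 in 14 of 18 pairs (all 3 for WT at 0 h and 6 h and for KO at 6 h and 24 h). Each number was therefore taken as a culture that pairs times, and blocked values are given where they change a call. In KO2 and KI the numbers were not taken to pair samples, since most same-numbered deviations did not correlate at over 0.1. In KI between 6 h and 24 h they correlated at 0.0285 to 0.164 in F121A and 0.0281 to 0.173 in WT. Whether the numbers pair those samples was not settled.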

Additional observations from a re-analysis of the deposited data

Results flagged for a closer look

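Of 108 groups of 6 to 8 samples checked over the 9 genes, 10 had 1 library far from the others, and chance flags about 1 in 20 groups. No explanation is weighed for any of them. In KO2 KO at 6 h, library 7 had 571 CPM of Nos2 (others 1819 to 2902) and 22.1 CPM of Asl (others 13.4 to 17.4). In resting KO2 WT, library 8 had 4.21 CPM of Arg1 (others 0.985 to 1.90) and 19.7 CPM of Slc7a1 (others 5.31 to 11.8). In KO2 WT at 6 h, library 7 had 1.33 CPM of Arg1 (others 0.189 to 0.693), and at 24 h library 5 had 33.9 CPM of Odc1 (others 6.87 to 18). In F121A at 6 h, library 5 had 1.02 CPM of Arg1 (others 0 to 0.238), and library 1 had 203 CPM of Ass1 (others 172 to 179). In KI WT, library 5 at 6 h had 6.49 CPM of Asl (others 10.4 to 12.3), and library 3 at 0 h had 6.60 CPM of Odc1 (others 2.83 to 4.2).

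Genotype effects differed over the 3 times by the joint edgeR test in KO2 for Arg2 (adjusted p = 0.0387), Ass1 (8.82e-06), Slc7a1 (0.00165) and Slc7a2 (6.45e-05), and in KI for Nos2 (0.00471) and Gch1 (9.93e-04). The KO2 knockout effect differed from the F121A effect by edgeR for Ass1 at 0 h (5.85e-04), and at 24 h for Arg2 (0.0323), Slc7a2 (1.02e-05) and Gch1 (5.19e-04). With replicate numbers summed, the joint test did not pass for Arg2 in KO2 (adjusted p = 0.109) or Nos2 in KI (0.0511). Nor did Arg2 pass at 24 h between the KO2 and F121A effects (0.0975).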

How the results depend on the processing

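With 3 cultures per group, KO1 depended on the tool and the filter: members called between KO and WT were 0 at each time, against 1, 0 and 1 in DESeq2 (Nos2 at 0 h, Arg1 at 24 h), 4, 1 and 2 without the filter on low counts, and 1, 0 and 1 in voom on single libraries, which called 2 for genotype by time (DESeq2 1, main 0) and 8 for WT at 24 h against 0 h (main 5). Leaving out 1 KO1 culture gave 0 to 0 members at 0 h and 6 h, 0 to 1 at 24 h, 0 to 0 for genotype by time, 7 to 9 (6 h against 0 h), 5 to 7 (24 h against 0 h) and 4 to 6 (24 h against 6 h) for WT, and 6 to 8, 5 to 6 and 4 to 5 for KO. With only the compared groups 1 member was called at 0 h in KO2 and 1 in KI (2 each in the full fits). With replicate numbers summed, KI had 1 call at 0 h, 4 at 24 h and 1 for genotype by time (main 2 each), and without the filter 6 at 24 h. The sums of WT at 24 h each joined libraries from both sides of that group's split. In KI at 24 h, 0 were called without WT libraries 1, 3 and 5 and 4 without 2, 4 and 6, which gave 5 for genotype by time. In KO2 at 6 h, 1 was called without KO libraries 1, 4 and 7 (main 3). The KO2 effect minus the F121A effect had 2 calls at 0 h in DESeq2 and without the filter (main 1), and 1 at 6 h with library totals (Arg2, adjusted p = 0.0435, main 0). Slc7a1 in KO2 WT at 6 h against 0 h reversed with library totals (-0.27, adjusted p = 0.251), and Arg2 in KI WT at 24 h against 6 h without libraries 2, 4 and 6 (-0.033, adjusted p = 0.889, main 0.70). The cause was not tested for any of these. Over single genes, 2762 values kept direction and side of the threshold, 46 no longer passed, 77 newly passed and 2 reversed. In KI and KO2 the replicate numbers were not taken to pair samples. Deviations between times correlated at over 0.1 in 10 of 36 and 8 of 46 same-numbered pairs. With that number as a block, KI at 24 h had 3 calls, with Arg1 at 1.64 (adjusted p = 0.00381), against 2, and Arg1 in KO2 WT at 6 h was not called (adjusted p = 0.054). The culture as a block in KO1 added Ass1 in KO between 6 h and 24 h, and Slc7a1 against 0 h at both later times in WT, and changed no other call of a member there. Leaving out resting F121A library 5 or the 2 samples of conflicting labels moved no count of members called past 1.5 times. Arg1 at rest and 6 h in KI and KO2, and Nos2 at rest in KO2, rest on few counts.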
